A study of Caenorhabditis elegans with 12 samples.

Results

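The measurements concern RNA counted over 673 single copies of 5 DNA transposon families in the Caenorhabditis elegans genome. The table lists 53925 repeat copies, and the 673 are the rows named after MIRAGE1 (62 copies), CEMUDR1 (431), CEMUDR2 (40), Chapaev-1_CE (73) and Chapaev-2_CE (67). A copy is 1 row of the table, and a family is the sum of its copies. The families were selected on their fold changes between groups in an earlier analysis of the same libraries, and which of the comparisons was used is not recorded. Their fold changes and calls in all 6 comparisons are therefore given as a description and support nothing by themselves.

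DNA transposons are mobile elements that move as DNA, cut out and pasted by a transposase that intact copies encode. MIRAGE and Chapaev elements belong to a group of cut-and-paste transposons related to the plant CACTA elements, and the CEMUDR names mark relatives of the MuDR (Mutator) elements of maize. In the worm germ line such elements are held silent by small RNAs loaded on Argonaute proteins and by methylation of lysine 9 of histone H3. The enzyme SET-25 adds that mark, and MET-2 makes the lower methylation states.

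Whole gravid adults were profiled in 4 groups of 3 libraries. The set25 group was strain MT17463, which carries the allele set-25(n5021) on chromosome III, kept at 20 °C and collected 72 to 76 h after 1500 eggs per plate were plated. The F3 group was wild-type N2 descended from L4 larvae of a 25 °C population that were returned to 20 °C for 3 generations, and was collected at 72 to 76 h. The F0 group was that N2 population, kept at 25 °C for 5 generations and collected at 54 to 56 h. The control group was N2 kept at 20 °C in parallel, with no collection hour of its own given. The mutants are 1 strain with 1 allele, and their library numbers come from a later run of numbers with no wild type named beside them. A genotype effect and a library batch effect therefore cannot be told apart in set25. In F0, temperature and hours since plating cannot be told apart either. The labels name 3 biological replicates of 3 plates in each group.

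The 9 wild-type libraries held 28217840 to 35483865 counts, and set25 libraries 1, 2 and 3 held 22682534, 26289581 and 10678819. Ribosomal RNA took 15.1%, 8.56% and 28.0% of the counts in set25 libraries 1, 2 and 3, against 6.89 to 8.01% in the wild-type libraries. Replicates differed by more than counting noise, with a chi-square per degree of freedom of 102 to 388 within set25, 15.8 to 34.4 within F3, 4.70 to 4.98 within F0 and 3.84 to 3.95 within control. The row for set-25 stood at 59.0, 59.1 and 50.6 CPM (counts scaled to a common library size with TMM) in the 3 set25 libraries, against 65.7 to 69.6 CPM in controls. The labels do not say which part of the gene the allele removes, so a count over the whole gene does not check the genotype.

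Of all counts that fell on repeats other than ribosomal RNA, the 5 families took 12.6%, 14.6% and 14.6% in the set25 libraries, 10.12%, 10.8% and 10.3% in F3, 14.2%, 13.9% and 14.5% in F0, and 7.61%, 7.65% and 7.64% in controls. The groups did not overlap with the controls in this share. RNA came from whole animals, so fewer cells and less RNA per cell cannot be told apart in any value below.

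MIRAGE1 differed most among the 5 families. Its summed level was 104, 151 and 161 CPM in the set25 libraries, 35.1, 49.5 and 41.6 CPM in F3, 118, 114 and 123 CPM in F0, and 14.5, 17.1 and 21.6 CPM in controls. All libraries of set25, F3 and F0 lay above all controls, F3 lay below set25 and F0, and set25 and F0 overlapped. The log2 fold change against control was 2.95 (SE 0.21) in set25 and 2.73 (SE 0.21) in F0, both called higher by edgeR at an adjusted p under 0.05 (n = 3 and 3). In F3 it was 1.24 (SE 0.22), which was not called at that threshold, whereas DESeq2 did call it (log2 1.25). MIRAGE1 ranked first of 158 tested repeat families in set25, first in F3 and second in F0, where PAL8B_CE, a family at a mean of 0.168 CPM, ranked first. Against F0, MIRAGE1 in F3 fell by 1.49 on the log2 scale (SE 0.19), and in set25 the log2 difference from F0 was 0.22 (SE 0.19), not called.

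CEMUDR1 stood at 113, 135 and 136 CPM in set25, 108, 104 and 109 CPM in F3, 111, 106 and 114 CPM in F0, and 66.7, 64.1 and 63.0 CPM in controls. Its F3 and F0 libraries overlapped and were all above the controls. The log2 fold change against control was 0.98 (SE 0.06) in set25, 0.73 (SE 0.06) in F3 and 0.78 (SE 0.06) in F0, and all 3 were called higher. CEMUDR1 ranked 5 of 158 families in set25, 2 in F3 and 7 in F0.

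Chapaev-1_CE stood at 99.0, 99.99 and 97.8 CPM in set25, 95.04, 90.8 and 90.9 CPM in F3, 95.2, 96.0 and 93.9 CPM in F0, and 81.1, 80.3 and 79.0 CPM in controls. All 3 groups lay above the controls with little spread. The log2 fold changes against control were 0.31 (SE 0.04) in set25, 0.20 (SE 0.03) in F3 and 0.25 (SE 0.03) in F0, all called higher. The F3 call was lost when only the F3 and control libraries were fitted and when control replicate 1, 2 or 3 was left out (log2 0.19 to 0.21). The 5 copies with the highest mean level averaged 93.4 CPM in set25, 85.2 in F3, 87.9 in F0 and 72.8 in controls. The other 68 copies summed to 5.55 ± 1.42 CPM in set25, 7.06 ± 0.898 in F3, 7.43 ± 0.508 in F0 and 7.39 ± 0.153 in controls (mean ± SD, n = 3 each). Their set25 libraries lay below all controls, while F3 and F0 overlapped with the controls.

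Chapaev-2_CE and CEMUDR2 were called higher in set25 against control, and set25 was also called higher than F3 and F0 for both. Chapaev-2_CE stood at 37.2, 41.3 and 39.8 CPM in set25, 32.8, 29.5 and 32.8 CPM in F3, 28.0, 28.2 and 29.7 CPM in F0, and 28.8, 29.6 and 27.3 CPM in controls. Its log2 fold change against control was 0.47 (SE 0.06) in set25, called higher, against 0.15 (SE 0.06) in F3 and 0.00 (SE 0.06) in F0, neither called. The set25 log2 difference from F0 was 0.46 (SE 0.06) and from F3 0.32 (SE 0.06). CEMUDR2 stood at 12.97, 11.7 and 10.5 CPM in set25, 8.92, 9.22 and 8.81 CPM in F3, 8.85, 9.25 and 9.66 CPM in F0, and 9.46, 9.64 and 9.48 CPM in controls. Its log2 fold change against control was 0.32 (SE 0.09) in set25, called higher, and -0.08 (SE 0.09) in F3 and -0.04 (SE 0.09) in F0, neither called. The set25 log2 difference of CEMUDR2 from F0 was 0.36 (SE 0.09) and from F3 0.40 (SE 0.09). Its call against control was lost without a low-count filter (log2 0.29), without set25 replicate 1 or 2, without any 1 control replicate (0.23 to 0.32 over these) and without set25 libraries 1 and 3 together (0.29). The call of CEMUDR2 in set25 against F3 was lost in a fit of only the libraries compared (0.39), without set25 replicate 1 (0.31) and without set25 libraries 1 and 3 together (0.38).

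**Figure D1:**
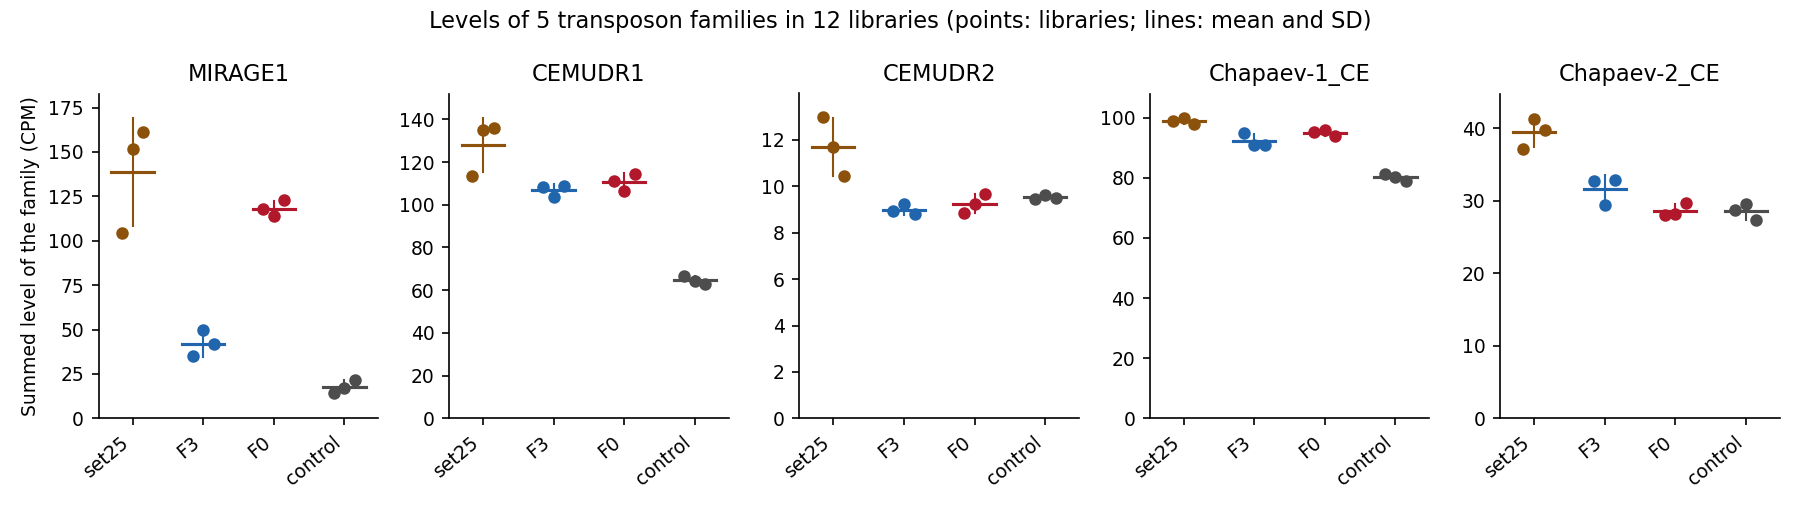
Summed level of each family (CPM, linear axis from 0) in the 3 libraries of set25, F3, F0 and control; points are libraries, horizontal lines means and vertical lines SD. MIRAGE1 averaged 139 CPM in set25, 42.1 CPM in F3, 118 CPM in F0 and 17.7 CPM in controls, while CEMUDR1 averaged 128 CPM in set25, 107 CPM in F3, 111 CPM in F0 and 64.6 CPM in controls.

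All 5 families were called higher in set25 against control, where 8.95% of 14624 genes and families were. The counts called higher were 3 of 5 in F0 against control (background 16.5%) and 2 of 5 in F3 against control (background 0.15%). In F3 against F0, 1 of 5 families was called lower (background 17.2%), and in set25, 3 of 5 were called higher against F0 (background 17%) and 4 of 5 against F3 (background 8.19%). F0, F3 and set25 share the same control libraries, so these counts are not separate observations. Among the other 153 tested families, 18 were higher and 4 lower in set25, 9 higher and 17 lower in F0, and 0 higher and 2 lower in F3, each against control by edgeR. In F3, 3 of the 153 were higher and 5 lower at an unadjusted p under 0.05, and DESeq2 called 0 higher and 2 lower.

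The rise of a family could come from many copies or few. Of the 673 copies, 215 had no count in any library, 405 had counts but stayed below the low-count filter and 53 were tested. Those were 15 MIRAGE1, 10 CEMUDR1, 2 CEMUDR2, 10 Chapaev-1_CE and 16 Chapaev-2_CE copies. The filter asks for about 10 counts (0.332 CPM) in at least 3 libraries, and 15 of the 53, among them 10 of the 15 MIRAGE1 copies, did not reach it in all 3 controls. Those copies passed through the groups in which they were high, so counts over the tested copies describe them and not the families as a whole.

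Of the 53 tested copies, 25 were called higher and 0 lower in set25 against control, where 8.64% of all 15554 genes and copies were called higher and 7.7% lower. At an unadjusted p under 0.05, 1 copy was lower in set25, and DESeq2 called 0 lower. Without set25 replicate 2, 1 copy was called lower in set25, Chapaev-2_CE_23 (log2 -2.85). In F0 against control 20 were higher (background 16%) and 5 lower (background 11.2%). With DESeq2, with repeat rows alone and without F0 replicate 2 or control replicate 2, 1 copy was lower in F0, MIRAGE1_62, and 19 to 20 were higher. Lower copies in F0 numbered 2 without a low-count filter and without F0 replicate 3 or control replicate 3, and 3 with the replicate block and without F0 replicate 1 or control replicate 1. In F3 against control 15 were higher (background 0.225%) and 0 lower (background 0.148%), with 3 lower at an unadjusted p under 0.05 and 0 by DESeq2. These 15 copies were 9 of MIRAGE1, 5 of CEMUDR1 and 1 of Chapaev-1_CE, and they made up 42.9% of the 35 features called higher in F3. That share counts rows, which are not separate sources. Of the 9 MIRAGE1 copies, 6 held nearly equal counts and may share reads. The gene row K03D7.1, also among the 35, carries nearly the same counts as Chapaev-1_CE_29. Among the other 1035 tested repeat copies, edgeR and DESeq2 each called 0 higher and 2 lower in F3, with 28 higher and 23 lower at an unadjusted p under 0.05 by edgeR.

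The 9 features with the largest fitted rise among those called in F3 against control were all MIRAGE1 copies, as were the 8 largest in F0 against control and 4 of the 10 largest in set25 against control. Several of these copies may share reads, and 10 of the 15 tested MIRAGE1 copies did not reach the filter level in all 3 controls. MIRAGE1_44, MIRAGE1_46 and MIRAGE1_47 had 1, 2.33 and 0.76 counts over the controls, so the size of their fitted rise rests on few counts. The family was also selected on its fold changes, so these ranks are a description only. In F3 against F0, 5 copies were higher (background 11.9%) and 10 lower (background 16.4%), and 8 of the 10 were MIRAGE1. In set25, 19 copies were higher and 1 lower against F0 (backgrounds 15.9% and 19.5%), and 22 were higher and 1 lower against F3 (backgrounds 7.94% and 6.86%).

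**Figure D2:**
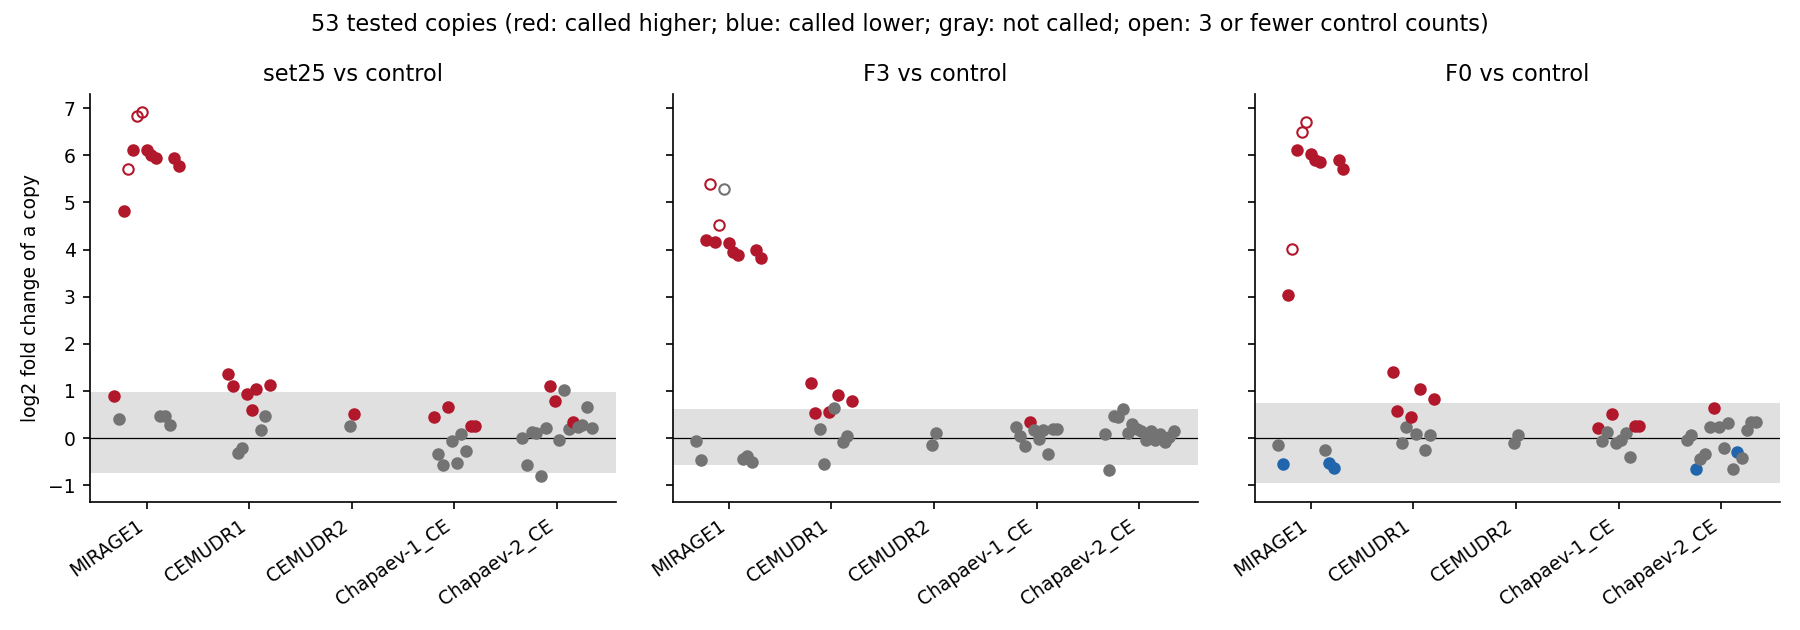
Log2 fold change against control (vertical axis) of the 53 tested copies by family in set25, F3 and F0; red points were called higher, blue lower and gray not called, open points had 3 or fewer counts summed over the controls, and the gray band spans the 5th to 95th percentile of the other 1035 tested repeat copies. In F3 that band runs from -0.58 to 0.61 and MIRAGE1_7, 8, 45, 50, 51 and 52 lie between 3.83 and 4.16.

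The MIRAGE1 differences sat in a few copies. Copies 7, 8, 45, 50, 51 and 52 held nearly equal counts, within 1.4-fold of each other in every library, although their rows lie on 3 chromosomes, 2 each on II, IV and V. In MIRAGE1, 81.6% of the values above 0 were not whole, against 57.0% in genes, 62.7% in the other repeats and 68.7 to 89.4% in the other member families. A value that is not whole arises when a read is divided among places, and the share does not set MIRAGE1 apart from the other members. With their nearly equal counts, these 6 rows may share reads and cannot be read as 6 separate sources. Summed, they stood at 77.1, 119.5 and 130.4 CPM in set25, 20.2, 34.6 and 25.8 CPM in F3, 102, 97.3 and 107 CPM in F0, and 1.74, 1.29 and 2.02 CPM in controls. The groups did not overlap except set25 and F0. The mean of the sum was 64.6 times the control mean in set25, 15.9 times in F3 and 60.5 times in F0, with 161 counts behind the control mean over the 3 libraries.

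Each of the 6 copies followed the sum. MIRAGE1_51, listed on chromosome IV between pig-1 and asm-3, stood at 13.8, 21.3 and 23.2 CPM in set25, 3.42, 5.92 and 4.40 CPM in F3, 17.5, 17.1 and 18.7 CPM in F0, and 0.331, 0.203 and 0.372 CPM in controls. The 6 copies ranged from 11.4 to 23.2 CPM in set25, 3.15 to 6.04 CPM in F3, 14.7 to 18.7 CPM in F0 and 0.197 to 0.372 CPM in controls. All 6 were called higher in set25 (log2 5.77 to 6.12), in F3 (3.83 to 4.16) and in F0 (5.71 to 6.11) against control. All 6 were called lower in F3 against F0 (-1.96 to -1.88) and higher in set25 against F3 (1.94 to 2.06). Between set25 and F0 their log2 differences were 0.01 to 0.10 with SE of 0.16 to 0.18, none called.

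These 6 copies held 73.9 to 80.9% of all MIRAGE1 counts in set25, 57.5 to 69.8% in F3, 85.4 to 86.9% in F0 and 7.56 to 12.03% in controls. The other 56 copies summed to 29.965 ± 2.51 CPM in set25, 15.2 ± 0.496 CPM in F3, 16.3 ± 0.339 CPM in F0 and 16.1 ± 3.46 CPM in controls (mean ± SD, n = 3 each). Taken from the means, the 6 copies stood 25.2 CPM above control in F3 and 100.4 CPM above it in F0, where the whole family stood 24.3 and 100.3 CPM above it. In set25 the 6 copies stood 107 CPM above control and the family 121 CPM. The F3 excess of the 6 copies was 25.1% of their F0 excess.

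**Figure D3:**
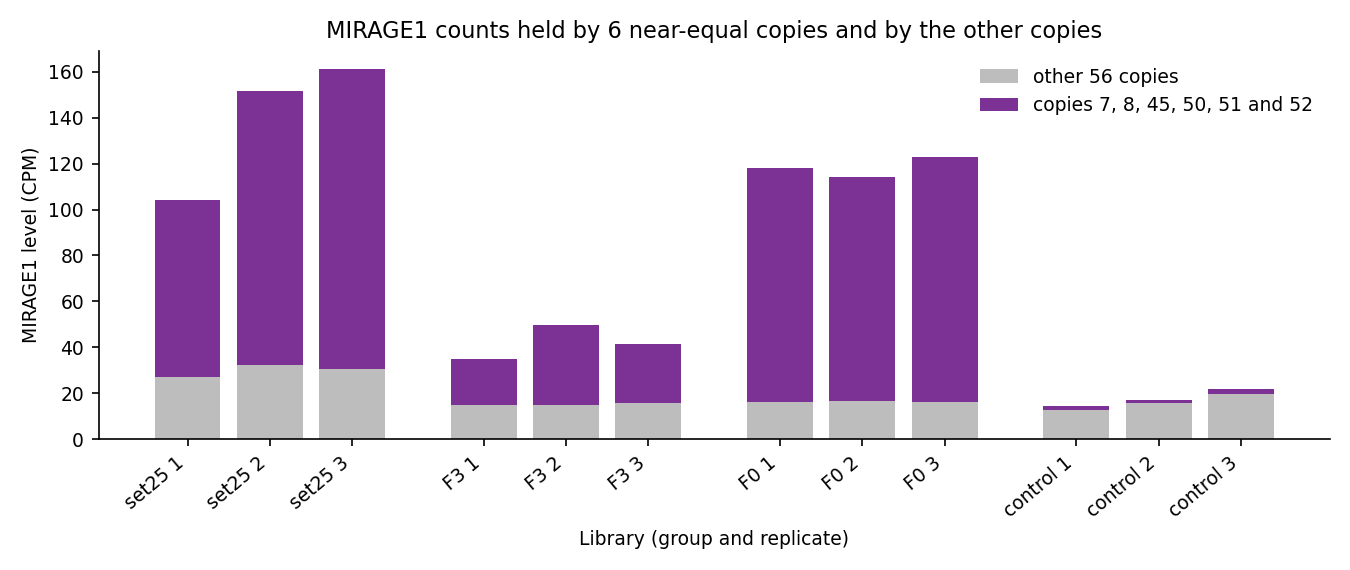
MIRAGE1 level (CPM, linear axis from 0) in each library, split into the 6 near-equal copies (purple) and the other 56 copies (gray). The gray part is 27.2 to 32.03 CPM in set25 and 12.7 to 19.6 CPM in the other groups, while the purple part is 77.1 CPM or more in set25, 20.2 to 34.6 CPM in F3, 97.3 CPM or more in F0 and at most 2.02 CPM in controls.

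MIRAGE1_46 and MIRAGE1_47, listed next to each other on chromosome II between K09F6.4 and K09F6.5, had the same order of groups at lower counts. MIRAGE1_46 stood at 2.69, 4.77 and 4.88 CPM in set25, 0.689, 1.04 and 0.742 CPM in F3, 3.05, 3.04 and 3.52 CPM in F0, and 0.0259, 0.0221 and 0.0252 CPM in controls. Its control value rests on 2.33 counts over 3 libraries and that of MIRAGE1_47 on 0.76, so no fold against control is given for either. MIRAGE1_47 had 28.7 counts summed over the set25 libraries, 15.01 over F3, 45.3 over F0 and 0.76 over controls. Both were called lower in F3 than in F0, by 1.97 (SE 0.23) and 1.42 (SE 0.42) on the log2 scale. The MIRAGE1_47 call in that comparison was lost with DESeq2 (log2 -1.43), with repeat rows alone (-1.41), without F3 replicate 3 (-1.19) and without F0 replicate 1 (-1.37).

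MIRAGE1_43 and MIRAGE1_44, listed next to each other on chromosome II between K07E8.2 and K07E8.1, had another order, with F3 above F0. MIRAGE1_43 stood at 1.22, 1.90 and 1.68 CPM in set25, 0.602, 1.39 and 1.16 CPM in F3, 0.396, 0.503 and 0.478 CPM in F0, and 0.0355, 0 and 0.13 CPM in controls. MIRAGE1_44 stood at 0.698, 0.675 and 1.12 CPM in set25, 0.666, 0.456 and 0.786 CPM in F3, 0.232, 0.246 and 0.241 CPM in F0, and 0.0355, 0 and 0 CPM in controls. For both copies every F3 library lay above every F0 library, and F0 above control. The log2 difference of F3 from F0 was 1.17 (SE 0.36) for MIRAGE1_43 and 1.39 (SE 0.35) for MIRAGE1_44, both called higher, while the 6 near-equal copies were lower in F3. The MIRAGE1_43 call was lost with repeat rows alone (1.18), without F3 replicate 2 (0.91) and without F0 replicate 1 (1.06) or 3 (1.22). For MIRAGE1_43 the log2 fold change against control was 4.83 (SE 0.54) in set25, 4.21 (SE 0.55) in F3 and 3.03 (SE 0.63) in F0, all called higher, while MIRAGE1_44 had 1 count over the controls and gets no fold. The 2 copies together had 131 counts over the set25 libraries, 152 over F3, 71.7 over F0 and 6.17 over controls, so their precision is low.

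MIRAGE1_40, 41, 60, 61 and 62 made up the control signal of the family, with 86.6% of its control counts. Together they stood at 21.3, 22.3 and 20.5 CPM in set25, 12.1, 11.20 and 12.2 CPM in F3, 11.1, 11.3 and 10.98 CPM in F0, and 11.999, 15.3 and 18.7 CPM in controls. The controls were spread more widely than the other groups, and the 3 set25 libraries lay above all of them. MIRAGE1_62, listed on chromosome III between C13B9.3 and pdfr-1 (a neuropeptide receptor gene), had the smallest fold change of the tested MIRAGE1 copies in set25, F3 and F0 alike. It stood at 7.01, 6.90 and 5.83 CPM in set25, 4.19, 3.46 and 4.01 CPM in F3, 3.54, 3.74 and 3.52 CPM in F0, and 4.72, 5.52 and 6.32 CPM in controls. In F0 MIRAGE1_62 fell by 0.62 on the log2 scale against control (SE 0.13), as did MIRAGE1_41 by 0.55 (SE 0.20) and MIRAGE1_61 by 0.53 (SE 0.18). The MIRAGE1_62 call was kept in all 14 alternatives (-0.72 to -0.52), and those of MIRAGE1_41 and MIRAGE1_61 were each lost in 8 of 14. Both were lost with DESeq2 (-0.56 and -0.54), with repeat rows alone (-0.56 and -0.54) and without F0 replicate 2 or 3 or control replicate 2 or 3 (-0.53 to -0.42 for MIRAGE1_41 and -0.57 to -0.28 for MIRAGE1_61). MIRAGE1_41 also lost it without a low-count filter (-0.54) and with the replicate block (-0.55), and MIRAGE1_61 in a fit of only the libraries compared (-0.54) and without F0 replicate 1 (-0.51). All 5 copies were called higher in set25 than in F0 (log2 0.72 to 1.05) and than in F3 (0.79 to 0.97), and MIRAGE1_40 alone was called higher in set25 than in control (0.90, SE 0.18). The MIRAGE1_60 call against F0 was lost without a low-count filter (0.66), and against F3 that of MIRAGE1_41 without set25 replicate 2 (0.73) and that of MIRAGE1_61 without set25 libraries 1 and 3 together (0.87). MIRAGE1_61 was called higher in set25 than in control without control replicate 3 (0.73).

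**Figure D4:**
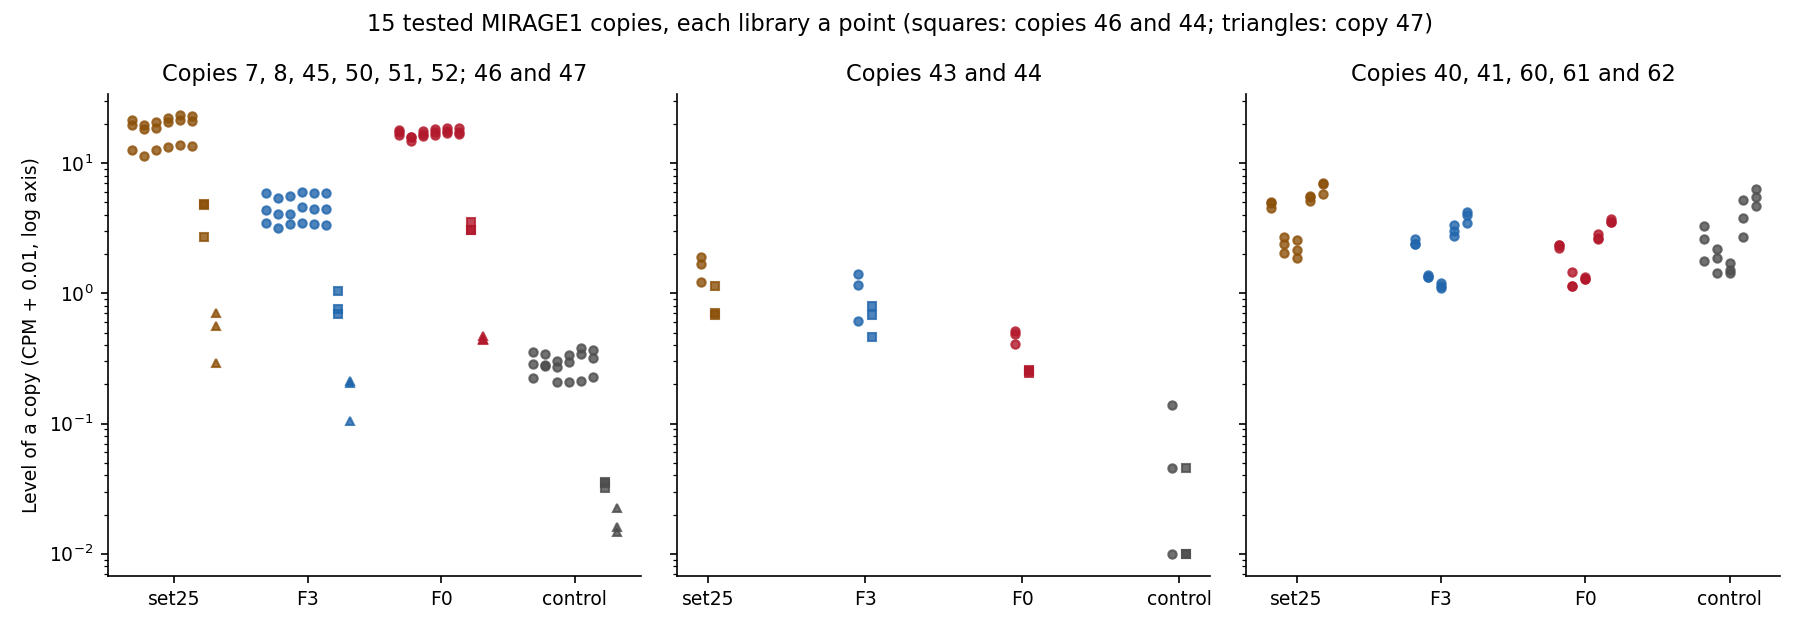
Level of the 15 tested MIRAGE1 copies (CPM + 0.01, log axis), each library a point, in set25, F3, F0 and control. The 6 near-equal copies (circles, left) lie between 0.197 and 0.372 CPM in controls and at 3.15 CPM or more elsewhere, copies 43 and 44 (middle) lie higher in F3 than in F0, and the 5 copies at right, 3 of them called lower in F0 than in control, are the only ones above 1 CPM in controls.

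CEMUDR1 counts were also concentrated. The 5 copies with the highest mean level, CEMUDR1_149, CEMUDR1_332, CEMUDR1_328, CEMUDR1_67 and CEMUDR1_168, held 87.9% of the counts of a family of 431. Their sum was 101, 121 and 124 CPM in set25, 95.2, 92.0 and 95.4 CPM in F3, 99.7, 95.4 and 103 CPM in F0, and 54.3, 53.2 and 52.2 CPM in controls. The other 426 copies summed to 12.7 ± 0.929 CPM in set25, 12.7 ± 0.778 CPM in F3, 11.8 ± 0.418 CPM in F0 and 11.4 ± 0.828 CPM in controls (mean ± SD, n = 3 each), and these groups overlapped. The difference of the family from control was therefore mostly that of the 5 copies, at 62.2 of 63.5 CPM in set25, 40.9 of 42.3 CPM in F3 and 45.99 of 46.1 CPM in F0.

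CEMUDR1_149, listed on chromosome V between atfs-1 (a mitochondrial stress transcription factor gene) and T16A9.3, had the largest fold change of the family in set25, F3 and F0. It stood at 25.6, 30.9 and 32.9 CPM in set25, 25.8, 25.4 and 26.0 CPM in F3, 29.9, 29.6 and 31.01 CPM in F0, and 11.8, 11.3 and 11.3 CPM in controls. Its log2 fold change against control was 1.36 (SE 0.08) in set25, 1.17 (SE 0.07) in F3 and 1.40 (SE 0.07) in F0. CEMUDR1_332, on chromosome IV, stood at 21.6, 26.0 and 24.4 CPM in set25, 22.4, 22.0 and 21.9 CPM in F3, 24.5, 21.9 and 24.9 CPM in F0, and 12.0012, 10.6 and 12.3 CPM in controls. It was within 1.35-fold of it in every library, with log2 fold changes of 1.05, 0.92 and 1.03 (SE 0.08 each) in set25, F3 and F0, so these rows too may share reads. In F3 against F0, CEMUDR1_149 was called lower (log2 -0.23, SE 0.07), a call that was lost with repeat rows alone (-0.23), without F3 replicate 2 (-0.22) and without F0 replicate 1 (-0.23) or 3 (-0.20). The difference of CEMUDR1_332 in F3 against F0 was -0.11 (SE 0.08) and was not called.

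CEMUDR1_328, CEMUDR1_67 and CEMUDR1_168 were highest in set25. CEMUDR1_328, listed on chromosome IV, stood at 27.7, 33.1 and 31.7 CPM in set25, 23.9, 22.8 and 25.1 CPM in F3, 22.5, 21.7 and 22.7 CPM in F0, and 16.6, 16.8 and 15.2 CPM in controls. CEMUDR1_67, listed on chromosome I, stood at 14.6, 17.3 and 18.6 CPM in set25, 13.4, 12.5 and 13.5 CPM in F3, 13.5, 12.8 and 14.2 CPM in F0, and 7.81, 7.59 and 7.32 CPM in controls. CEMUDR1_168 stood at 11.6, 14.2 and 16.04 CPM in set25, 9.77, 9.18 and 8.84 CPM in F3, 9.22, 9.35 and 9.82 CPM in F0, and 6.12, 6.96 and 6.02 CPM in controls. Every set25 library of these copies lay above every F3 and F0 library, and those lay above the controls. The total count of the gene row Y54G2A.36, listed 4 rows from CEMUDR1_328, equalled 104.2% of that of the copy, at 84.6 to 130.3% over libraries, and its log2 fold changes against control were 0.58 (SE 0.10) in set25, 0.33 (SE 0.10) in F3 and 0.04 (SE 0.10) in F0. The log2 fold changes against control were 0.93, 1.14 and 1.10 in set25 for CEMUDR1_328, CEMUDR1_67 and CEMUDR1_168, 0.56, 0.80 and 0.54 in F3, and 0.46, 0.84 and 0.57 in F0 (SE 0.07 to 0.11), all called higher. The F3 call of CEMUDR1_168 was lost in a fit of only the libraries compared (log2 0.54), with the replicate block (0.54) and without F3 replicate 1 or 2 or control replicate 1 or 3 (0.50 to 0.54).

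The 5 copies called higher in F3 and in F0 against control were the 5 with the highest mean level, and in set25 a copy outside them, CEMUDR1_331, was called as well. CEMUDR1_331, listed like CEMUDR1_332 between zip-11 and F42A6.3, stood at 1.98, 2.19 and 2.01 CPM in set25, 1.83, 2.03 and 2.48 CPM in F3, 1.44, 1.49 and 1.38 CPM in F0, and 1.53, 1.35 and 1.22 CPM in controls. It was called higher in set25 than in control (log2 0.60, SE 0.19) and in F3 than in F0 (0.55, SE 0.17). In F3 against control CEMUDR1_331 was not called, though its F3 libraries lay above all controls and it was called higher with repeat rows alone (0.64). The set25 call was lost with DESeq2 (0.60), without a low-count filter (0.57), with the replicate block (0.61), without set25 replicate 1, 2 or 3 or control replicate 2 or 3 (0.53 to 0.64) and without set25 libraries 1 and 3 together (0.69). The call of F3 against F0 was lost with DESeq2 (0.56), without a low-count filter (0.52) and without F3 replicate 3 or F0 replicate 1 or 3 (0.42 to 0.55). CEMUDR1_298, with the smallest fold change of the family in set25, stood at -0.31 (SE 0.26), CEMUDR1_384 was lowest in F0 at -0.26 (SE 0.40) and CEMUDR1_30 in F3 at -0.54 (SE 0.43), none of them called.

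**Figure D5:**
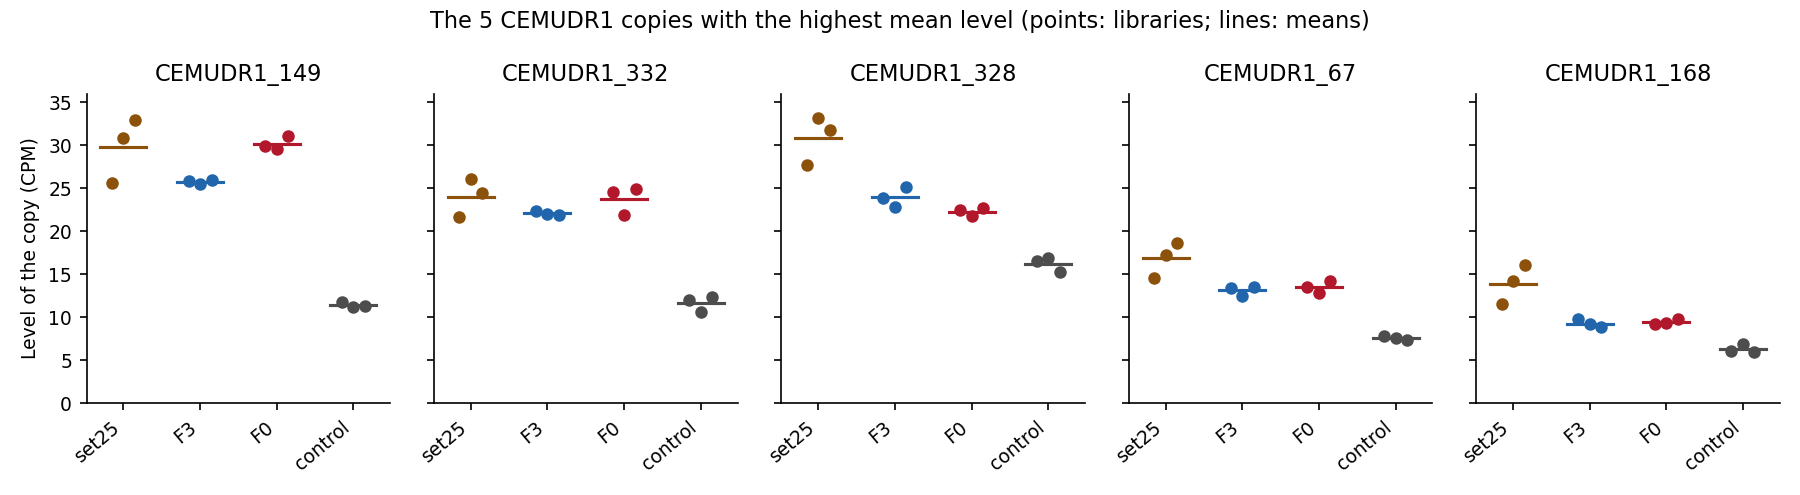
Level (CPM, linear axis from 0) of the 5 CEMUDR1 copies with the highest mean over all libraries; points are libraries and lines are means of set25, F3, F0 and control. For CEMUDR1_149 the F3 libraries lie at 25.4 to 26.0 CPM and the F0 libraries at 29.6 to 31.01 CPM, against 11.3 to 11.8 CPM in controls.

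CEMUDR2 held 2 tested copies, both on chromosome V. CEMUDR2_12 stood at 8.44, 7.63 and 6.41 CPM in set25, 5.91, 5.72 and 5.51 CPM in F3, 5.47, 5.93 and 6.30 CPM in F0, and 6.38, 6.48 and 6.27 CPM in controls. CEMUDR2_13 stood at 3.91, 3.48 and 3.62 CPM in set25, 2.53, 2.94 and 2.84 CPM in F3, 2.71, 2.59 and 2.84 CPM in F0, and 2.60, 2.49 and 2.66 CPM in controls. The set25 libraries of CEMUDR2_13 lay above all others, and it was called higher there than in control (log2 0.51, SE 0.14). That call was lost without a low-count filter (0.47), without set25 replicate 1 (0.46) or control replicate 2 (0.48), and without set25 libraries 1 and 3 together (0.43).

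The Chapaev-1_CE signal lay mostly in rows beside annotated genes. For Chapaev-1_CE_58, Chapaev-1_CE_51, Chapaev-1_CE_29 and Chapaev-1_CE_2, the adjacent gene row was picked within 5 rows for the steadiest ratio to the copy. The same choice was made for Chapaev-2_CE_31 and Chapaev-2_CE_4. The gene rows dnj-15, Y54G2A.36 and Y54G2A.21 were taken because their counts lay within 1.4-fold of those of the copy in every library. The proportion between such rows was therefore part of the choice. Chapaev-1_CE_58 and Chapaev-1_CE_51, both on chromosome IV, differed by at most 1.01-fold in any library. Chapaev-1_CE_58 stood at 25.1, 25.2 and 24.9 CPM in set25, 24.8, 23.4 and 23.6 CPM in F3, 25.0, 25.1 and 24.6 CPM in F0, and 21.2, 20.8 and 20.6 CPM in controls. Its log2 fold change was 0.26 (SE 0.06) in set25 and 0.25 (SE 0.05) in F0, both called higher, and 0.20 (SE 0.05) in F3, not called. The set25 call of Chapaev-1_CE_58 was lost without set25 libraries 1 and 3 together (0.27). The total count of the adjacent gene row K08D10.1 equalled 78.0% of that of Chapaev-1_CE_58, and the total of K08F11.2 equalled 80.2% of that of Chapaev-1_CE_51, each a ratio of separate rows. Those gene rows had log2 fold changes of 0.27 and 0.27 in set25, 0.18 and 0.18 in F3, and 0.24 and 0.24 in F0. Another gene row, dnj-15, listed 3 rows from Chapaev-1_CE_58, equalled 100.4% of the total of that copy, at 87.0 to 120.8% over libraries. Its log2 fold changes against control were 0.01 in set25, -0.03 in F3 and -0.11 in F0 (SE 0.08 each), unlike those of the copy.

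Chapaev-1_CE_29 had the largest fold change of its family in set25, F3 and F0. It stood at 18.2, 19.6 and 19.6 CPM in set25, 15.2, 15.8 and 14.5 CPM in F3, 17.2, 17.1 and 16.8 CPM in F0, and 12.04, 12.1 and 11.8 CPM in controls. The groups did not overlap, and the log2 fold changes against control were 0.67 (SE 0.07) in set25, 0.34 (SE 0.07) in F3 and 0.50 (SE 0.07) in F0, all called higher. Its F3 call was lost without a low-count filter (log2 0.32), in a fit of only the libraries compared (0.34), with the replicate block (0.34) and without F3 replicate 1 or 2 or any 1 control replicate (0.31 to 0.34). The total count of the adjacent gene row K03D7.1 equalled 99.5% of that of the copy, at 98.98 to 99.7% over libraries, so the rows may share reads and cannot be told apart. The gene fbxa-136, listed 2 rows away and of the F-box A class, was called higher in set25 (log2 3.27, adjusted p 8.1e-07), in F3 (1.91, adjusted p 0.0077) and in F0 (2.13, adjusted p 7.7e-05) by edgeR. Chapaev-1_CE_2, listed on chromosome I beside Y20F4.5, whose total count equalled 58.1% of that of the copy, stood at 20.4, 19.8 and 20.8 CPM in set25, 18.5, 17.5 and 16.6 CPM in F3, 17.3, 17.5 and 17.3 CPM in F0, and 15.2, 14.7 and 14.7 CPM in controls. It was called higher in set25 (log2 0.44, SE 0.07) and F0 (0.23, SE 0.06), and its F3 value was 0.24 (SE 0.06), not called. Its F0 call was lost with repeat rows alone (0.22) and without control replicate 3 (0.21). Chapaev-1_CE_4, the lowest of its family's 5 highest copies, was called in none of the comparisons. The smallest fold changes of the family were those of Chapaev-1_CE_26 in set25 (-0.56, SE 0.23) and Chapaev-1_CE_5 in F3 and F0, none called.

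The 5 highest Chapaev-2_CE copies held 69.3% of the counts of the family. Chapaev-2_CE_31 had the largest called fold change of its family in set25 and F0. It stood at 5.37, 5.98 and 5.996 CPM in set25, 3.50, 3.07 and 3.24 CPM in F3, 4.25, 4.13 and 4.09 CPM in F0, and 2.92, 2.57 and 2.52 CPM in controls. The log2 fold change against control was 1.12 (SE 0.13) in set25 and 0.64 (SE 0.12) in F0, called higher, and 0.30 (SE 0.13) in F3, not called. The total count of the adjacent row Y116F11B.10, annotated as a pseudogene, equalled 97.8% of that of the copy, at 93.6 to 100.4% over libraries. Chapaev-2_CE_4, beside Y48G1BM.6, stood at 7.42, 9.17 and 8.86 CPM in set25, against 4.87 to 5.98 CPM in F3, 5.46 to 6.10 CPM in F0 and 4.73 to 5.07 CPM in controls. It was called higher in set25 against control (log2 0.78, SE 0.12) but in neither F3 (0.19, SE 0.12) nor F0 (0.23, SE 0.12).

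Other Chapaev-2_CE copies had their lowest mean level in F0. Chapaev-2_CE_22, on chromosome V, stood at 2.69, 3.07 and 4.06 CPM in set25, 4.15, 3.71 and 4.09 CPM in F3, 2.41, 1.76 and 2.25 CPM in F0, and 2.99, 3.21 and 2.54 CPM in controls. Its neighbour Chapaev-2_CE_21 stood at 0.85, 0.87 and 1.10 CPM in set25, 1.29, 1.02 and 1.10 CPM in F3, 0.59, 0.52 and 0.49 CPM in F0, and 0.90, 0.85 and 0.77 CPM in controls. Both were called higher in F3 than in F0, by log2 0.89 (SE 0.16) and 1.12 (SE 0.22). In F0 against control Chapaev-2_CE_21 fell by 0.66 (SE 0.23), a call lost with DESeq2 (-0.67), without a low-count filter (-0.64), with repeat rows alone (-0.66), with the replicate block (-0.66) and without any 1 library of either group (-0.75 to -0.60). Chapaev-2_CE_52, the highest copy of the family, stood at 9.33, 10.6 and 10.03 CPM in set25, 7.84, 7.03 and 8.19 CPM in F3, 5.99, 6.45 and 6.98 CPM in F0, and 7.96, 8.03 and 7.80 CPM in controls. It fell by 0.29 in F0 (SE 0.10) and was called higher in set25 (0.33, SE 0.10). Its F0 call was lost with DESeq2, without a low-count filter, with repeat rows alone and without F0 replicate 1 or 2 or any 1 control replicate (-0.31 to -0.24). Its set25 call was lost without a low-count filter (0.29), without set25 replicate 2 or 3 or any 1 control replicate (0.28 to 0.34) and without set25 libraries 1 and 3 together (0.41). The total count of the gene row Y54G2A.21, listed 3 rows away, equalled 94.8% of that of the copy, at 89.6 to 101.6% over libraries, and its log2 fold changes against control were 0.43 (SE 0.11) in set25, -0.01 (SE 0.10) in F3 and -0.22 (SE 0.11) in F0. Chapaev-2_CE_23 had the smallest fold change of the family in set25, at -0.79 (SE 0.49), and the largest in F3, at 0.63 (SE 0.37), neither called. Without set25 replicate 2 it was called lower in set25 than in control (-2.85). It was also called lower in set25 than in F3 (-1.42). That call was lost with counts not rounded (-1.38), with repeat rows alone (-1.38) and with the replicate block (-1.44). It was lost too in a fit of only the libraries compared (-1.44) and without set25 replicate 1 or 3 or any 1 F3 replicate (-1.47 to -0.95). Chapaev-2_CE_10, the lowest of its family's 5 highest copies, stood at log2 0.01 (SE 0.23) in set25, 0.10 (SE 0.21) in F3 and -0.03 (SE 0.21) in F0, not called.

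Genes of small RNA and heterochromatin pathways were examined beside the members. They were 52 listed genes of H3K9 methylation and heterochromatin, piRNA, mutator and secondary siRNA, and Argonaute and nuclear RNAi functions, of which 49 were found and tested. They are called silencing genes below, a name for the list that does not mean that each acts on transposons. In F3 against control 0 of 49 were called (background 0.15% higher and 0.137% lower), with 1 higher and 1 lower at an unadjusted p under 0.05 and 0 by DESeq2. In F0 against control 2 were higher (background 16.5%) and 17 lower (background 12%). The chromodomain gene cec-4, whose product anchors methylated chromatin at the nuclear rim, rose to 53.8, 58.7 and 54.8 CPM in F0, against 36.5, 38.2 and 38.1 CPM in controls, a log2 difference of 0.57 with an SE of 0.06 (edgeR adjusted p 1.5e-06). The H3K9 methyltransferase genes met-2 and set-25 fell by 0.18 (SE 0.04, adjusted p 0.0012 by edgeR) and 0.34 (SE 0.07, adjusted p 0.0019) in F0. Transcripts of parn-1, which trims piRNAs, fell by 0.43 (adjusted p 2.8e-05 by edgeR), those of mut-7, a mutator nuclease, by 0.27 (adjusted p 6.4e-05) and those of nrde-3, a nuclear Argonaute, by 0.25 (adjusted p 0.0014). Transcripts of rde-8, an RNA interference endonuclease, fell by 0.28 (adjusted p 0.00022 by edgeR), and the Argonaute gene wago-3 was higher (0.17, adjusted p 0.0041). In F3, met-2, set-25 and cec-4 stood at log2 differences of 0.02, 0.06 and -0.03 from control (SE 0.04, 0.07 and 0.06), none called.

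In set25 against control, 3 of the 49 silencing genes were higher (background 8.95%) and 6 lower (background 8.21%), the largest difference being 0.24 on the log2 scale. The higher were mut-2 (log2 0.22, adjusted p 0.0012 by edgeR), smut-1 (0.17, adjusted p 0.012) and mut-16 (0.13, adjusted p 0.031). The lower included set-25 itself (-0.24, adjusted p 0.032 by edgeR), hpl-2, a heterochromatin protein gene (-0.16, adjusted p 0.012), parn-1 (-0.23, adjusted p 0.015), mut-7 (-0.14, adjusted p 0.026) and tofu-2 (-0.14, adjusted p 0.031), a piRNA factor gene. Without set25 libraries 1 and 3 together, 0 silencing genes were called, and 2 to 6 were with 1 set25 or control replicate left out. The germline nuclear Argonaute hrde-1, listed as wago-9, was called in none of the comparisons with control (log2 0.01 in set25, -0.02 in F3 and -0.06 in F0, SE 0.06 each).

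Marker genes of tissues were called in F0 and set25 against control. Of all genes and families, 16.5% were called higher and 12% lower in F0, and 8.95% higher and 8.21% lower in set25. Beside those shares, a count of 1 in a list of 4 to 10 genes does not set that list apart. The 9 sperm genes summed to 27.8 to 35.9 CPM in set25, 26.2 to 32.2 CPM in F3, 54.2 to 68.5 CPM in F0 and 24.7 to 32.5 CPM in controls, and 6 of 8 tested were higher in F0. The 5 epidermal genes summed to 898 to 1062 CPM in set25, 923 to 1131 CPM in F3, 1401 to 1533 CPM in F0 and 1144 to 1171 CPM in controls, with 2 of 5 higher in F0 and 1 of 5 lower in set25. The 8 intestinal genes summed to 45462 to 49117 CPM in set25, 39047.5 to 44219 CPM in F3, 30478 to 35504 CPM in F0 and 37657 to 40913 CPM in controls, with 4 of 8 lower and 1 higher in F0, and 3 of 8 higher in set25. The 10 germ cell genes summed to 2686 to 2752 CPM in set25, 2603 to 2881 CPM in F3, 2687 to 2796 CPM in F0 and 2713 to 2729 CPM in controls, and of the 10 genes 1 was higher and 1 lower in F0, and 1 higher and 2 lower in set25. Oocyte sums were 7377 to 7860 CPM in set25, 6835 to 7907 CPM in F3, 6933 to 7211 CPM in F0 and 7561 to 7732 CPM in controls, with 4 of 8 genes lower in F0. Embryo, muscle and neuron sums averaged 9.49, 1582 and 86.7 CPM in set25, 8.38, 1289 and 108 CPM in F3, 9.89, 1420 and 108 CPM in F0, and 8.60, 1169 and 108 CPM in controls. Muscle genes were called higher in F0 (2 of 4) and set25 (1 of 4), and neuron genes lower in F0 (1 of 4) and set25 (1 of 4, with 1 higher). No listed marker was at 0 in every library of a group. The part of these differences in the F0 and set25 values of the transposons was not tested. In F3, MIRAGE1_7, 8, 45, 50, 51 and 52 were also called higher, and edgeR and DESeq2 each called 0 of the 56 tested marker genes. With a background of 0.15% higher and 0.137% lower, that 0 cannot show whether the make-up of tissues was unchanged. At an unadjusted p under 0.05 by edgeR, 0 markers were higher and 3 lower in F3. The median log2 fold change in F3 against control was -0.96 for the epidermal genes and -0.02 to 0.10 for the other lists.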

How the data were processed

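RNA of whole gravid adults was extracted with TRIzol and made into stranded total RNA libraries depleted of ribosomal RNA, without poly(A) selection, as the labels' protocols state. The table the authors deposited holds estimated counts per gene and per repeat copy, in which 22.4% of values are not whole (tolerance 1e-06). The submitters' processing notes name TopHat2 2.1.0, featureCounts 1.5.1 and DESeq2 1.8.1, without a role. No source used here gives the genome build, the strand setting or the handling of reads that match several places, and reads of near-identical copies may be divided among them.

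Counts were rounded and tested with edgeR 4.0.16 (R 4.3.3; quasi-likelihood, robust, TMM scaling), all 12 libraries in 1 fit, p-values adjusted by Benjamini-Hochberg over all features and called at 0.05. One fit held genes and summed families (14624 tested) and another genes and single copies (15554 tested), after a filter of about 10 counts. Ribosomal RNA families were left out of the tests. The SE is that of the log2 fold change. DESeq2 1.42.0 was an alternative, as were other scalings, filters, and fits without single libraries or with repeat rows alone, and the scripts were tested on simulated data. Summaries and plots used Python 3.11.15.

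Total counts per library were 10678819 to 35483865. P-values of the main fit rest on a spread within groups that is estimated from all 12 libraries, 3 a group. Those of F3 or F0 against control therefore include the wider spread within set25. Replicate numbers did not pair the samples. The members, the lists of silencing and marker genes and the tests were chosen with earlier results of these data known. The copies named are up to 5 tested copies of each family with the highest mean level over all 12 libraries and those with the largest and smallest fold change against control, and MIRAGE1_8, 40, 41, 43, 46, 60 and 61, CEMUDR1_331 and Chapaev-2_CE_22 were named after their values were seen. Silencing genes named are up to 5 per direction by smallest p, with set-25, met-2 and hrde-1. A copy's chromosome and flanking genes were read from the order of the table's rows, in which 99.9% of adjacent annotated genes lie on 1 chromosome. No lengths were at hand, so levels are not scaled to the length of a copy or gene. Ranks of copies by mean level, shares of a family and ratios of gene rows to copies therefore compare counts only.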

Additional observations from a re-analysis of the deposited data

How the results depend on the processing

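Among the 5 families and 53 tested copies in the 6 comparisons, no called value changed sign under the alternatives run. Of their 5005 values under the alternatives, 4782 stayed on the same side of the threshold, 198 lost the call and 25 gained it, in 53 of 348 results; the cause was not tested. The member copies called in F3 against control numbered 13 to 16 with 1 replicate left out and 13 to 18 under the other alternatives, against 15. Without a low-count filter, 13 member copies were called in set25 against F0, against 20. In F3 against control, 1 member family was called when only the libraries compared were fitted and 1 to 2 with 1 replicate left out (Chapaev-1_CE lost its call without control replicate 1, 2 or 3). In F3 against F0, 1 to 2 families were called with 1 replicate left out, since Chapaev-2_CE was called higher without F3 replicate 2 (log2 0.21). In set25 against control, 15 silencing genes were called with only the libraries compared, 2 to 6 with 1 replicate left out and 0 without set25 libraries 1 and 3 together, against 9. In F0 against control 29 were called with only the libraries compared, against 19, and in set25 against F0 13 without set25 libraries 1 and 3, against 23. In set25 against F3, 2 were called with only the libraries compared, 3 to 10 with 1 replicate left out (10 without F3 replicate 1) and 0 without set25 libraries 1 and 3, against 4. Replicate numbers did not pair the samples: 18 correlations of same-numbered deviations ran from -0.207 to 0.114, with 2 over 0.1. With the replicate number as a block, 24 member copies were called in set25, 13 in F3 and 23 in F0 against control and 14 in F3 against F0, and 3 families in F3 against control, where MIRAGE1 was called (log2 1.25). MIRAGE1 in F3 was also called with DESeq2 (1.25) and with repeat rows alone (1.24). Depth limits the copies with few control counts, and 405 member copies with counts were not tested.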

Other observations

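The counts of genes beside the transposon copies are given as values, with no test, since the window of 5 table rows was chosen after the data were seen. Of 14466 tested genes, 840 (5.81%) lie within 5 table rows of a copy of the 5 families. Among the 20 genes called higher in F3 against control, 8 (40%) do, and among the 21 called lower 0 do. Among the genes called higher, the share was 7.76% in set25 (99 of 1276) and 6.21% in F0 (152 of 2448), each against control. K03D7.1 is 1 of the 8 and carries nearly the same counts as Chapaev-1_CE_29, so it is not separate from that copy. Of the copies nearest to the 8 genes, Chapaev-1_CE_29 alone was called in F3 against control, and the others were not tested or not called.

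M162.12, 2 rows from Chapaev-2_CE_29, had log2 fold changes against control of 1.92 (SE 0.19) in set25, 2.00 (SE 0.18) in F3 and 3.03 (SE 0.17) in F0. W06A11.4, 1 row from Chapaev-2_CE_41, stood at 2.23 (SE 0.17) in set25, 1.54 (SE 0.17) in F3 and 1.22 (SE 0.17) in F0. ZC204.14, 1 row from Chapaev-2_CE_35, stood at 1.94 (SE 0.15) in set25, 1.40 (SE 0.14) in F3 and 1.503 (SE 0.14) in F0. F56D6.16, 2 rows from CEMUDR1_340, stood at 1.56 (SE 0.27) in set25, 1.37 (SE 0.25) in F3 and 3.91 (SE 0.20) in F0. M04F3.3, 3 rows from Chapaev-2_CE_9, stood at 0.12 (SE 0.12) in set25, not called, 0.73 (SE 0.11) in F3 and 1.64 (SE 0.10) in F0. K06B9.4, 2 rows from CEMUDR1_344, stood at 0.36 (SE 0.07) in set25, 0.39 (SE 0.06) in F3 and 0.47 (SE 0.06) in F0. The remaining one is fbxa-136, 2 rows from Chapaev-1_CE_29. The copies Chapaev-2_CE_29, Chapaev-2_CE_35, Chapaev-2_CE_41, CEMUDR1_340 and CEMUDR1_344 did not pass the low-count filter and were not tested. Chapaev-2_CE_9 was tested and not called in F3 against control. The 7 tested genes within 5 rows of the 6 near-equal MIRAGE1 copies had log2 fold changes against control of -0.59 to 0.37 in set25, where 1 was called higher and 2 lower, of -0.14 to 0.08 in F3 and of -0.26 to 1.09 in F0, where 2 were called higher and 1 lower. In F0 the higher were K02E7.11, 1 row from MIRAGE1_45 (1.09, SE 0.39), and K02B7.3, 1 row from MIRAGE1_50 (0.31, SE 0.09).

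MIRAGE1_37, which did not pass the low-count filter, had 20.6 counts over the set25 libraries, 11.4 over F3, 8.05 over F0 and 0 over controls.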
